A study of Mus musculus with 13 samples.

Results

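The RNAs described here are 6 genes of small structured noncoding RNA, namely Rn7sk (7SK RNA), Rn7s1 and Rn7s2 (copies of 7SL RNA), Rmrp (the RNA of RNase MRP), Rpph1 (the RNA of RNase P) and Rnu1a1 (U1 small nuclear RNA). They are 6 of the 27071 features in the deposited table, and they were picked by name with their levels in the pull-down, control and input libraries already known. Those levels are therefore given below as a description, with no test. Rn7s1 and Rn7s2 had identical counts in every library, so the 6 genes give 5 distinct sets of values.

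All of these RNAs work as the scaffold or catalyst of a ribonucleoprotein particle. 7SK RNA is nuclear and holds the kinase P-TEFb (Cdk9 with cyclin T) in an inactive form together with Hexim and Larp7 proteins, which restrains transcription elongation. 7SL RNA is the backbone of the signal recognition particle, which takes ribosomes that make secreted and membrane proteins to the endoplasmic reticulum. RNase P RNA removes the leader of precursor tRNAs, RNase MRP RNA is a related enzyme RNA that acts in the processing of ribosomal RNA precursors, and U1 RNA pairs with the start of introns during splicing. The first 5 of the genes are transcribed by RNA polymerase III, and U1 genes by RNA polymerase II.

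The RNA came from MA-10, a mouse Leydig tumour cell line that makes steroids. The KHT group is RNA recovered with anti-MBP beads after extracted MA-10 RNA had been mixed with the purified KH and Tudor domains of dAKAP1, an anchor for protein kinase A on mitochondria. The NEG group is the negative control pull-down, made with empty anti-MBP beads, with MBP alone or with the bait called KHT(GDDG), and the labels do not say which library had which. The IPT group is the input RNA, with no bait and no pull-down. The pull-down used naked, extracted RNA and a part of dAKAP1, so the particles' own proteins were not part of it. The KHT libraries are grouped by title and by the treatment label, since their description label speaks of negative controls. Setting KHT against NEG asks what the bait retained beyond the controls, setting KHT against IPT how the retained RNA differs from the RNA offered, and setting NEG against IPT what the controls recovered. The labels name separate libraries but no separate cultures, so the spreads below are between libraries and may be technical.

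There were 4 KHT, 5 NEG and 4 IPT libraries, and NEG 2 held 0 counts throughout, which leaves 4 libraries in each of the 3 groups. Total counts were 1955446 to 3689792 in KHT, 1162178 to 1618998 in NEG and 2487679 to 3085423 in IPT. A set of 9 dominant features, each with over 0.5% of the pooled NEG counts and led by features that collect ribosomal RNA reads, took 29.3% to 52.7% of the counts in KHT, 96.0% to 98.1% in NEG and 26.7% to 38.0% in IPT. Levels are therefore CPM, a library's counts scaled to a common total, outside these features, and they rest on 929348 to 2101632 counts in KHT, 31318 to 49062 in NEG and 1542713 to 2237374 in IPT. NEG 5 stood apart from the other controls, with 7047 features above 0 against 2173 to 4082. The Leydig markers (6 of 6 in the table) summed to 1277 to 2005 CPM in KHT, 0 to 1590 in NEG and 1266 to 2369 in IPT. Of the Sertoli markers, Sox9 averaged 10.7 CPM in KHT, 0 in NEG and 10.1 in IPT. Amh averaged 0.238 CPM in KHT, 0 in NEG and 0.456 in IPT. Wt1 and Cldn11 were at 0 in KHT and NEG and at 0.324 in IPT. The endothelial markers in the table, Pecam1 and Cdh5, summed to 55.2 to 90.9 CPM in KHT, 143 to 1118 in NEG and 51.9 to 118 in IPT. They went opposite ways. Pecam1 averaged 28.5 CPM in KHT, 602 in NEG and 15.5 in IPT, while Cdh5 averaged 44.1 in KHT, 37.4 in NEG and 70.4 in IPT. The part of Pecam1 in the results with NEG was not tested. The macrophage and germ cell markers in the table were at 0 in NEG, and summed to at most 7.53 and 15.5 CPM in KHT and 4.54 and 16.0 CPM in IPT. In NEG libraries 3 counts would be 61.1 to 95.8 CPM, so the 0s of these and the Sertoli markers there give no level. Means are given below with the SD over the 4 libraries of a group. The threshold of 0.5% fell between Gm26822 at 0.746% and mt-Rnr1 at 0.221% of pooled NEG counts, while the 6 small RNAs held at most 0.0172% each.

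The genes lie at separate places in the GRCm38 genome, each as a short gene without introns. Rn7sk is at chr9:78175302-78175633 (332 bases), 3187 bases from the protein-coding gene Cilk1, which the table calls Ick. Rn7s1 is at chr12:69159295-69159593, 108 bases from Rps29, and Rn7s2 is at chr12:69361183-69361481, 3981 bases from Nemf. Each 7SL copy is 299 bases long. Rmrp is at chr4:43492785-43493059 (275 bases), 280 bases from Ccdc107, and Rpph1 is at chr14:50807447-50807771 (325 bases), 125 bases from Parp2. Rnu1a1 is at chr11:87422867-87423030 (164 bases), inside the span of Tex14. Of these neighbours, Rps29 was at 200 ± 20.2 CPM in KHT libraries, 45.9 ± 91.7 in NEG libraries and 219 ± 22.5 in IPT libraries, and Parp2 had means of 19.2 CPM in KHT, 7.22 in NEG and 18.1 in IPT.

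Together the 6 genes took 3.85% ± 0.439 (SD, n = 4) of the counts outside the dominant features in KHT, 1.60% ± 1.99 (SD, n = 4) in NEG and 5.82% ± 0.492 (SD, n = 4) in IPT. The NEG libraries ran from 0.144% to 4.48%, the highest being NEG 5, so the KHT range of 3.47% to 4.24% lay inside that of the controls. Each value is a share of a library, so more of one RNA and less of all others cannot be told apart. The plot of levels by library shows how far NEG 5 stood from the other controls.

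**Figure D1:**
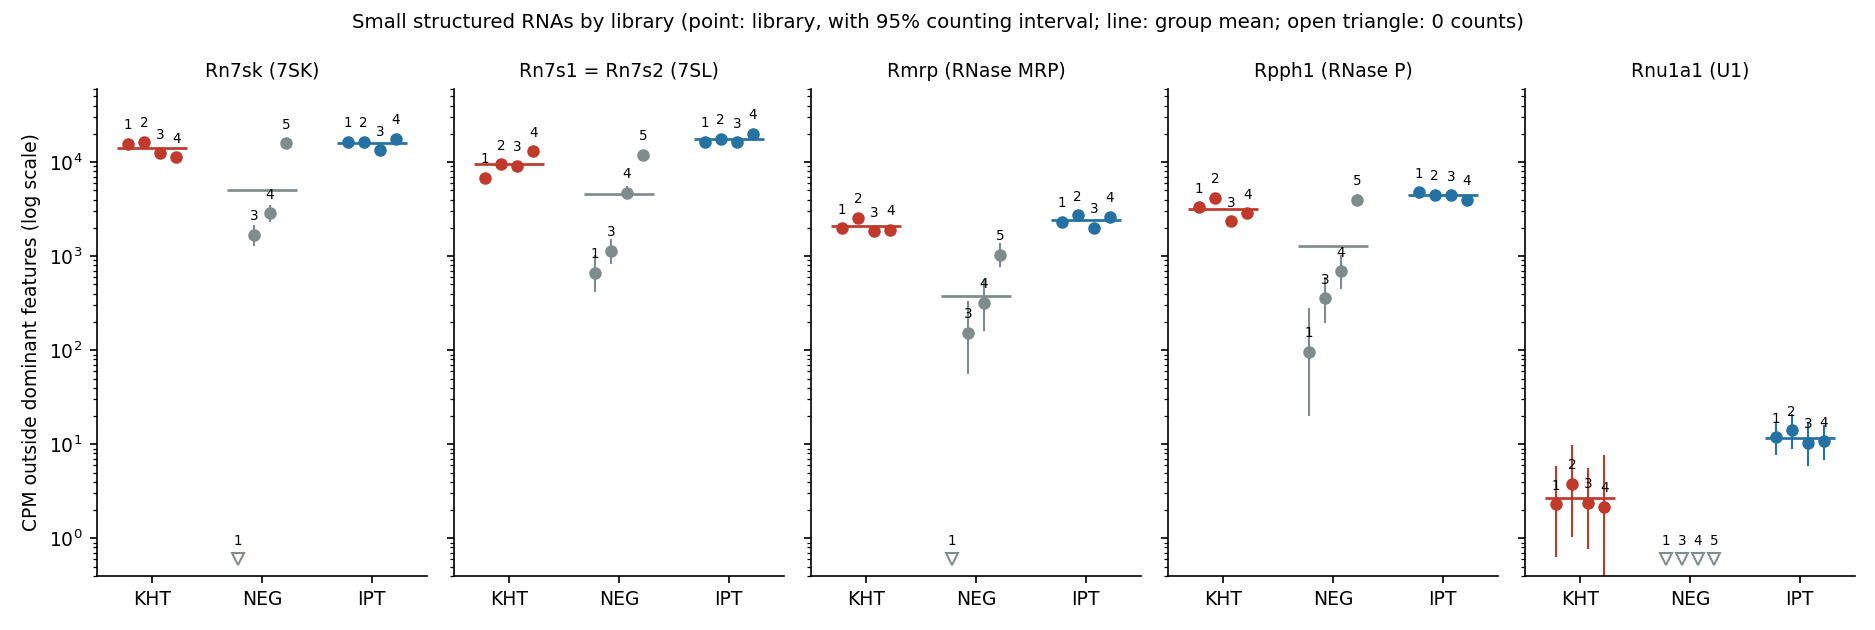
CPM outside the dominant features (log scale) of each RNA in the 4 KHT, 4 NEG and 4 IPT libraries, labelled by replicate number, with 95% counting intervals, lines at the group means and open triangles at 0 counts. NEG 5 sits near the KHT and IPT libraries for 7SK, 7SL and Rpph1 while the other controls sit lower, and Rnu1a1 lies between 2.15 and 14.1 CPM where it was counted.

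Rn7sk stood at 15749, 16576, 12372 and 11281 CPM in KHT libraries 1 to 4. It stood at 0, 1679, 2859 and 15939 CPM in NEG libraries 1, 3, 4 and 5, from 0, 66, 99 and 782 counts. In IPT libraries 1 to 4 it stood at 16563, 16500, 13358 and 17651 CPM. NEG 5 was inside the range of both other groups and the 3 other controls were below every KHT and IPT library. The means were 13994 ± 2565 CPM in KHT, 5119 ± 7308 in NEG and 16018 ± 1851 in IPT, and the ranges overlapped in all 3 comparisons.

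Rn7s1, and equally Rn7s2, stood at 6816, 9539, 9110 and 13107 CPM in KHT libraries 1 to 4. The NEG libraries 1, 3, 4 and 5 had 671, 1145, 4735 and 11944 CPM, from 21, 45, 164 and 586 counts. The IPT libraries 1 to 4 had 16482, 17750, 16339 and 19984 CPM. Every KHT library was below every IPT library, and NEG 5 again lay within the KHT range. The means per gene were 9643 ± 2600 CPM in KHT, 4624 ± 5207 in NEG and 17639 ± 1687 in IPT. The sum of both genes was 19286 ± 5201 CPM in KHT, 9247 ± 10413 in NEG and 35278 ± 3374 in IPT. It measures 7SL RNA if shared reads were split between the copies. If each copy got them in full, a single gene is the measure, and which of these holds was not tested.

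Rpph1 stood at 3309, 4185, 2352 and 2856 CPM in KHT libraries 1 to 4. NEG libraries 1, 3, 4 and 5 had 95.8, 356, 693 and 3954 CPM, from 3, 14, 24 and 194 counts. IPT libraries 1 to 4 had 4776, 4502, 4434 and 3973 CPM. KHT 2 reached above the lowest input library, and the highest control (NEG 5) stayed just under it. The means were 3175 ± 778 CPM in KHT, 1275 ± 1803 in NEG and 4421 ± 333 in IPT.

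Rmrp, the related enzyme RNA, stood at 1978, 2564, 1838 and 1908 CPM in KHT libraries 1 to 4. NEG libraries 1, 3, 4 and 5 had 0, 153, 318 and 1040 CPM, from 0, 6, 11 and 51 counts. IPT libraries 1 to 4 had 2320, 2718, 2013 and 2640 CPM. Among the RNAs with counts in the controls, Rmrp was the one for which every KHT library stood above every NEG library, NEG 5 included. The means were 2072 ± 333 CPM in KHT, 377 ± 460 in NEG and 2423 ± 323 in IPT, and the KHT and IPT ranges overlapped.

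Rnu1a1 stood at 2.30, 3.81, 2.38 and 2.15 CPM in KHT libraries 1 to 4, from 4, 4, 5 and 2 counts. It had 0 counts in each of the 4 NEG libraries, where 3 counts would be 61.1 to 95.8 CPM, so a level like that of KHT or IPT was not detectable there. IPT libraries 1 to 4 had 11.9, 14.1, 10.4 and 10.7 CPM, from 26, 23, 16 and 24 counts. The KHT libraries lay below the IPT libraries without overlap, with means of 2.66 ± 0.773 CPM in KHT and 11.8 ± 1.68 CPM in IPT. Single libraries were less clear at this depth: the 95% exact binomial interval ran from 1.04 to 9.76 CPM in KHT 2 and from 5.93 to 16.8 CPM in IPT 3. Counting intervals cover counting error only. They are too narrow if the table counts each read pair as 2, and whether it does is unsettled.

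The counts of Rnu1a1 were identical in every library to those of 6 other features, among them Gm22068 at chr11:87426716-87426879 and Gm22317 at chr12:54738459-54738622. Reads of U1 copies were thus either split among them or counted in full for each. Summed over these 7 features, the counts reached 18.6 ± 5.41 CPM in KHT, 0 in NEG and 82.3 ± 11.7 CPM in IPT, a measure of U1 RNA only if reads were split. U1 is known as an abundant nuclear RNA, and its count here rests on few reads in every library.

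Per kilobase of RNA, the sum of both 7SL genes led in all groups, with 64501 CPM per kb in KHT, 30928 in NEG and 117987 in IPT. 7SK had 42152 CPM per kb in KHT, 15419 in NEG and 48247 in IPT. A single 7SL gene had 32250 CPM per kb in KHT, 15464 in NEG and 58993 in IPT, which was below 7SK in KHT. The KHT ranges of the 7SL sum and 7SK overlapped (45594 to 87673 against 33979 to 49928 CPM per kb), as did those of NEG. In IPT the 7SL sum was higher in every library. Rpph1 had 9771 CPM per kb in KHT, 3922 in NEG and 13604 in IPT, and Rmrp had 7534 in KHT, 1373 in NEG and 8810 in IPT. Rpph1 and Rmrp overlapped in KHT and NEG and not in IPT, and Rnu1a1 was last with 16.2 CPM per kb in KHT, 0 in NEG and 71.7 in IPT.

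KHT with NEG gave a higher mean for the 4 distinct RNAs that both groups held. The log2 ratio of mean CPM was 2.46 for Rmrp (SD 1.77), 1.45 for Rn7sk (SD 2.08), 1.32 for Rpph1 (SD 2.07) and 1.06 for Rn7s1 (SD 1.67). Each SD is the spread between the libraries of both groups, carried to the log2 scale to first order, and it is larger than the ratio for all of them but Rmrp. The median of these RNAs was 1.38, beside 0.85 over the 4798 tested features with more than 3 counts in both groups. Of all tested features, 42.0% had every KHT library above every NEG library, so such a separation is common, though that share includes features at 0 in every NEG library. Of the 4798 features, 4582 had a lower ratio than Rmrp, 3483 than Rn7sk, 3247 than Rpph1 and 2808 than Rn7s1. NEG 5 set much of the size: without it the log2 ratios were 3.72 for Rmrp, 3.21 for Rn7sk, 3.06 for Rpph1 and 2.14 for Rn7s1. By total counts in place of counts outside the dominant features the median was 5.34, since the controls gave nearly all their counts to those features.

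KHT with IPT gave a lower mean for all 5 distinct RNAs, by unequal amounts. Rnu1a1 had the lowest log2 ratio, -2.14 (SD 0.47), and Rn7s1 followed with -0.87 (SD 0.41). Rpph1 had -0.48 (SD 0.37), Rmrp -0.23 (SD 0.30) and Rn7sk -0.19 (SD 0.31), the last pair within its spread. The median was -0.48, beside -0.01 over 10686 tested features. Rn7s1 and Rnu1a1 were the RNAs whose KHT and IPT libraries did not overlap, a pattern that 1.28% of tested features showed with KHT below IPT. Rnu1a1 had 2 to 5 counts per KHT library and 16 to 26 per IPT library. It passed the filter on low counts through IPT, which favours a low ratio, so its place among tested features is not read. Of the 10686 features, 132 had a lower ratio than Rn7s1. Among the 1955 with a mean of at least 100 CPM, 4 lay below Rn7s1, 20 below Rpph1, 208 below Rmrp and 271 below Rn7sk.

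**Figure D2:**
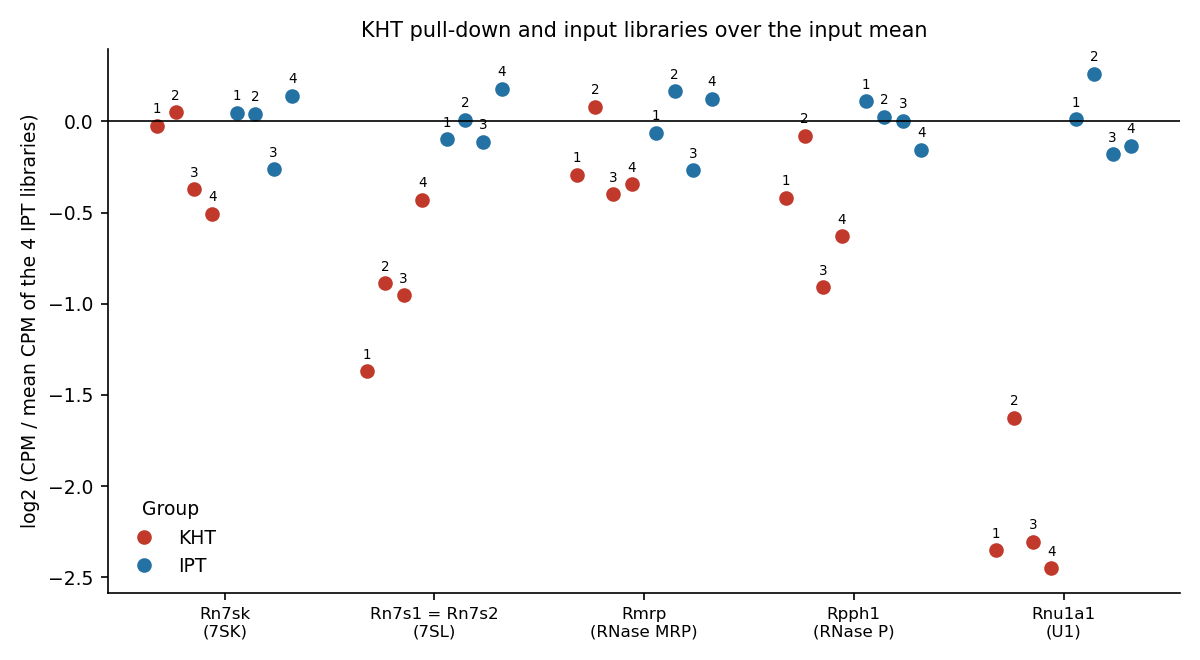
log2 of each KHT and IPT library's CPM over the mean of the 4 IPT libraries, for the 5 distinct RNAs, with replicate numbers beside the points and a line at 0. The KHT points of 7SL and U1 lie below all IPT points, while those of 7SK, Rmrp and Rpph1 overlap them.

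The KHT libraries were not alike in this. Relative to the IPT mean, 7SL was at 0.386, 0.541, 0.516 and 0.743 in KHT 1 to 4, and 7SK at 0.983, 1.03, 0.772 and 0.704. KHT 1, which was lowest for 7SL, was close to the input for 7SK, and KHT 4 was highest for 7SL and lowest for 7SK. U1 was at 0.196, 0.324, 0.202 and 0.183 of the IPT mean in the same libraries. Leaving out any 1 library kept the Rn7s1 log2 ratio between -1.06 and -0.74 and that of Rnu1a1 between -2.37 and -2.05.

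NEG with IPT, which shares its libraries with the comparisons above, gave lower means in the controls. The log2 ratios were -2.68 for Rmrp (SD 1.77), -1.93 for Rn7s1 (SD 1.63), -1.79 for Rpph1 (SD 2.04) and -1.65 for Rn7sk (SD 2.07). Their median was -1.86, beside -0.88 over 4782 features. Every NEG library was below every IPT library for Rn7s1, Rmrp and Rpph1, as for 43.5% of tested features. Without NEG 5 the ratios were -3.95 for Rmrp, -3.53 for Rpph1, -3.40 for Rn7sk and -3.01 for Rn7s1.

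Ratios of these RNAs inside a library do not depend on how libraries are scaled. The size of the 7SL to 7SK ratio rests on summing both 7SL genes, while its relative differences between libraries do not. The ratio of 7SL counts (both genes) to 7SK counts was 0.866, 1.15, 1.47 and 2.32 in KHT 1 to 4. It was 1.36, 3.31 and 1.5 in NEG 3, 4 and 5, while NEG 1 had 42 counts of 7SL and 0 of 7SK. In IPT 1 to 4 it was 1.99, 2.15, 2.45 and 2.26. The KHT libraries were far more spread than the input libraries, with 1.45 ± 0.631 in KHT and 2.21 ± 0.192 in IPT, and KHT 4 fell within the IPT range. The dominant features took 29.3%, 46.4%, 43.0% and 52.7% of the counts in KHT 1 to 4, so KHT 1 had the lowest share and the lowest ratio and KHT 4 the highest of both. The part of that share in the ratio was not tested.

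Rmrp counts over Rpph1 counts gave 0.598, 0.613, 0.781 and 0.668 in KHT 1 to 4. The controls had 0, 0.429, 0.458 and 0.263 in NEG 1, 3, 4 and 5, with a 95% exact interval of 0.135 to 1.19 for NEG 3 and of 0.189 to 0.360 for NEG 5. The input had 0.486, 0.604, 0.454 and 0.664 in IPT 1 to 4. The KHT libraries, at 0.665 ± 0.0832, overlapped the IPT libraries, at 0.552 ± 0.0988. Every control was below every KHT library in this ratio, and NEG 1 rested on 0 counts of Rmrp and 3 of Rpph1. Rmrp over 7SK was 0.149 ± 0.0181 in KHT and 0.151 ± 0.0102 in IPT, and Rpph1 over 7SK was 0.226 ± 0.0315 in KHT and 0.280 ± 0.0441 in IPT, both with overlapping libraries.

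**Figure D3:**
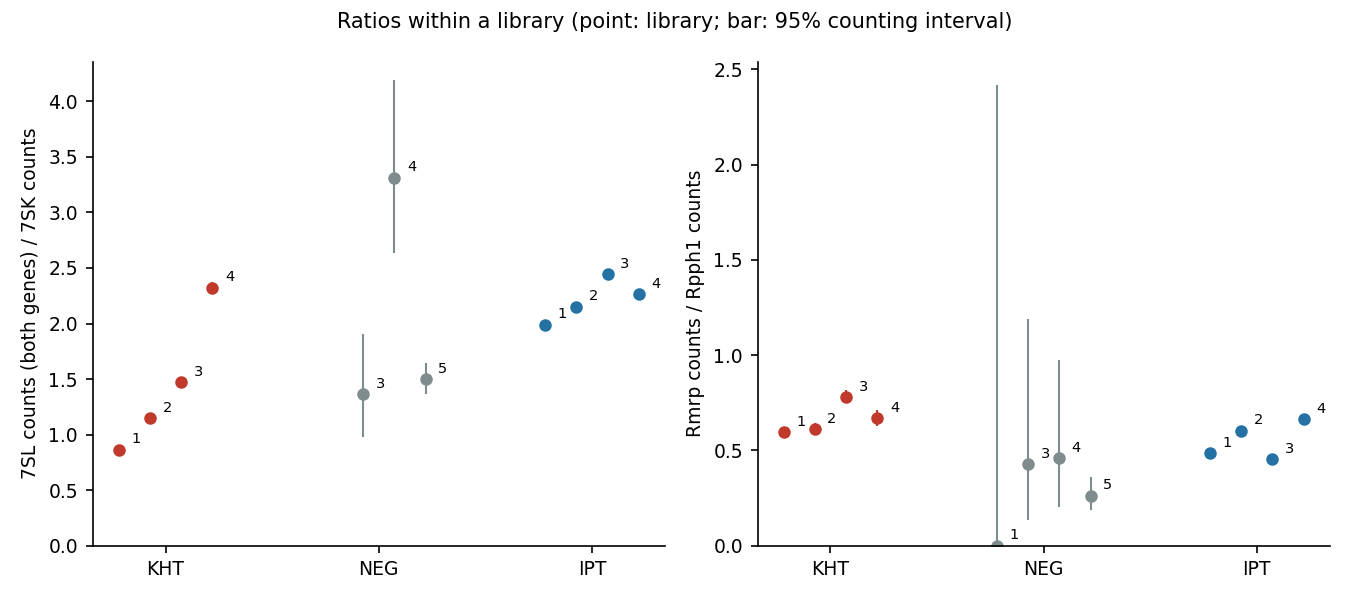
Ratio of 7SL counts (both genes) to 7SK counts, left, and of Rmrp to Rpph1 counts, right, in each KHT, NEG and IPT library, with 95% counting intervals and replicate numbers. NEG 1 has no 7SL to 7SK ratio because it held 0 counts of 7SK, and the KHT libraries run from 0.866 to 2.32 where the IPT libraries run from 1.99 to 2.45.

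The named features most like each RNA across the 12 libraries were sought by Pearson correlation of log2(CPM + 10), which is a description since the libraries fall into 3 groups and share NEG 5. Rn7sk was nearest to Rad21 (a cohesin subunit, r = 0.998), Ccdc82 (r = 0.997) and mt-Co1 (a subunit of cytochrome oxidase encoded in mitochondria, r = 0.995). Rmrp was nearest to the fatty acid desaturases Scd2 (r = 0.997) and Scd1 (r = 0.996) and to Birc6 (r = 0.993). Rpph1 was nearest to Setd2 (a histone methyltransferase, r = 0.983), Acan (r = 0.983) and Srsf11 (r = 0.979). Rn7s1 was nearest to Map2 and Maged2 (both r = 0.969) and to Atp5a1 (r = 0.968), and Rnu1a1 to Hpdl (r = 0.854), Mzt1 (r = 0.836) and Cenpc1 (r = 0.830). Map2 averaged 129 CPM in KHT, 37.8 in NEG and 175 in IPT, the same order of means as Rn7s1. Hpdl averaged 25.7 CPM in KHT, 0 in NEG and 46.1 in IPT, and the 0s of Hpdl and Rnu1a1 in NEG lie under the depth of those libraries and give no order.

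The messenger RNAs of the proteins that form these particles were not used to choose the 6 genes, and each was tested by the quasi-likelihood method of edgeR in a fit of 10714 genes. Between KHT and NEG, 8 of 38 were higher and 4 lower at an adjusted p under 0.05, where 31.0% of all genes tested were higher and 2.72% lower. The calls numbered 5 (3 higher, 2 lower) without NEG 1, 7 (5 higher, 2 lower) without NEG 3 and 21 (16 higher, 5 lower) without NEG 5. With counts outside the dominant features as library size, the scale of the CPM given here, 5 were higher and 5 lower. By that scale 2356 of all 10744 genes tested were higher and 385 lower. Of the 38, 9 had 0 counts in every NEG library. With those at the bound that 3 counts over the NEG group give, the median log2 ratio of pooled CPM was 0.36, beside 0.66 over all genes tested. Where a gene at 0 in NEG is called at least so many fold higher below, this bound is meant. It covers counting error only, not the spread between NEG libraries, and is too tight if the table counts each read pair as 2. The NEG values are thin, with 31318 counts outside the dominant features in the smallest library, and several calls below rest on few NEG counts.

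Of the 7 proteins of the 7SK particle, 2 were higher in KHT than NEG and none lower, beside 31.0% and 2.72% of all genes tested. Mepce, which caps 7SK RNA, averaged 64.8 ± 2.18 CPM in KHT libraries and 5.10 ± 10.2 in NEG, where NEG held 1 count, in NEG 5. Its edgeR log2 fold change was 3.57 (SE 0.84, adjusted p = 0.0062), and the ratio of pooled CPM was 9.95 with an exact counting interval of 1.77 to 394. Cdk9, the kinase of P-TEFb, averaged 70.4 ± 15.6 CPM in KHT libraries and 15.3 ± 30.6 in NEG, from 3 NEG counts, all in NEG 5. Its edgeR adjusted p was 0.0320, and it was 0.108 without NEG 1, 0.0767 without NEG 3, 0.0738 without NEG 4 and 0.0547 without KHT 3. With counts outside the dominant features as library size it was 0.0652. Larp7, which binds the end of 7SK RNA, had means of 58.9 CPM in KHT, 47.1 in NEG and 72.8 in IPT and did not pass in any comparison.

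Of the 10 proteins of the signal recognition particle and its receptor, 4 were higher in KHT than NEG and 1 lower. Among all genes tested, 31.0% were higher and 2.72% lower. Srprb, a receptor subunit, had 0 counts in NEG and was at least 3.35-fold higher in KHT (edgeR adjusted p = 0.00363). Srp14, which binds the Alu end of 7SL RNA, was at least 2.87-fold higher (edgeR adjusted p = 0.00445), and Srp68 at least 2.04-fold higher (edgeR adjusted p = 0.0188, and 0.0560 without NEG 1). Srp54c, a near copy of Srp54a and Srp54b whose reads may be split among them, was at least 2.25-fold higher with an edgeR adjusted p of 0.0286, which was 0.0579 to 0.0889 when any 1 NEG library was left out. It was 0.0514 with counts outside the dominant features as library size. Srp9, the partner of Srp14 on 7SL RNA, went the other way, with 56.4 ± 10.6 CPM in KHT libraries and 237 ± 178 in NEG (edgeR log2 fold change -1.78, SE 0.54, adjusted p = 0.0193). That call was lost without NEG 1 (0.0527), NEG 3 (0.178) or NEG 4 (0.0719), and the direction flipped to 2.33 under scaling by total counts.

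Of the 11 protein subunits of RNase P and MRP, 1 was higher in KHT than NEG and none lower. Rpp14 had 0 counts in NEG and was 1.26-fold above the NEG bound in KHT (edgeR adjusted p = 0.0209, and 0.0577 without NEG 1). That margin could vanish if each read pair is counted as 2. The 10 proteins of U1 and of the Sm ring, which is bound to U1 and the other spliceosomal RNAs, gave 1 higher and 3 lower. Snrpd1 averaged 84.2 ± 21.4 CPM in KHT libraries and 490 ± 261 in NEG (edgeR log2 fold change -2.24, SE 0.45, adjusted p = 0.00349), and Snrpe at 111 ± 53.7 in KHT and 864 ± 590 in NEG (-2.65, SE 0.61, adjusted p = 0.00564), and under scaling by total counts these changes flipped to 1.89 and 1.52. Snrpd1 was at 65.0 to 111 CPM in the KHT libraries and at 122 to 734 in the NEG libraries. In a NEG library 3 counts make at least 61.1 CPM, so the gap from 111 to 122 CPM is not read as a separation. Snrpd2 was also lower in KHT (edgeR log2 fold change -1.41, adjusted p = 0.0374, flipped to 2.71 by total counts), and Snrpc, the U1-C protein, was higher (1.69, adjusted p = 0.0485). Leaving out any of NEG 1, 3 or 4 or of KHT 1, 2 or 3 took Snrpd2 past the threshold (adjusted p of 0.0647 to 0.176), and leaving out any of NEG 1, 3 or 4 or any KHT library did so for Snrpc (0.0593 to 0.148). Counts outside the dominant features as library size also did so for Snrpc (edgeR adjusted p = 0.0944).

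Summed over its 10 genes, the U1 and Sm list stood at 797 ± 80.1 CPM in KHT, 2103 ± 717 in NEG and 757 ± 18.4 in IPT. The 7SK list stood at 574 ± 34.2 in KHT, 220 ± 283 in NEG and 542 ± 42.8 in IPT. The sums of these lists in KHT and IPT lay close together. Rnu1a1 itself had a lower mean in KHT, but from 15 counts in KHT and 89 in IPT, and it passed the filter through IPT. For the signal recognition particle list the sums were 594 ± 21.8 CPM in KHT and 629 ± 31.1 in IPT, and 7SL RNA was lower in KHT too.

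Between KHT and IPT none of the 38 messenger RNAs passed, where 0.00933% of genes tested (1, Rpl38-ps2, a pseudogene named after its value was seen) were higher and 0% lower. At an unadjusted edgeR p under 0.05 there was 1 of 38, Srp54b, where DESeq2 had 2 at an unadjusted p under 0.05 and 0 at an adjusted p under 0.05. The median log2 fold change of the 38 was 0.00, beside 0.01 over all genes. Between NEG and IPT, 4 of 38 were higher in NEG and 9 lower, where 3.64% of genes tested were higher and 32.5% lower. Srprb, Srp14, Srp68, Srp54c, Rpp14 and Rpp21 were among the lower and had 0 counts in every NEG library. Their IPT levels were 3.80, 2.63, 2.24, 3.19, 1.34 and 0.872 times the NEG bound. Rpp21 thus lay under what NEG could show, so its call is not read as a difference. That call was also lost without NEG 1 (edgeR adjusted p = 0.107) and in other settings. Without NEG 1 the calls numbered 8 (3 higher, 5 lower), and without NEG 5 they numbered 22 (5 higher, 17 lower). Srp9, Snrpd1, Snrpd2 and Snrpe were the higher 4, with edgeR log2 fold changes of 1.79, 2.49, 1.46 and 3.34 (adjusted p = 0.0176, 0.00174, 0.0307 and 0.00198). Under scaling by total counts these became -2.61, -1.93, -2.94 and -1.16, and the calls of Srp9 and Snrpd2 were lost without NEG 3 (0.172 and 0.156) or NEG 4 (0.0667 and 0.149), and that of Snrpd2 also without NEG 1 (0.0587), IPT 2 (0.0525) or IPT 4 (0.0661).

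**Figure D4:**
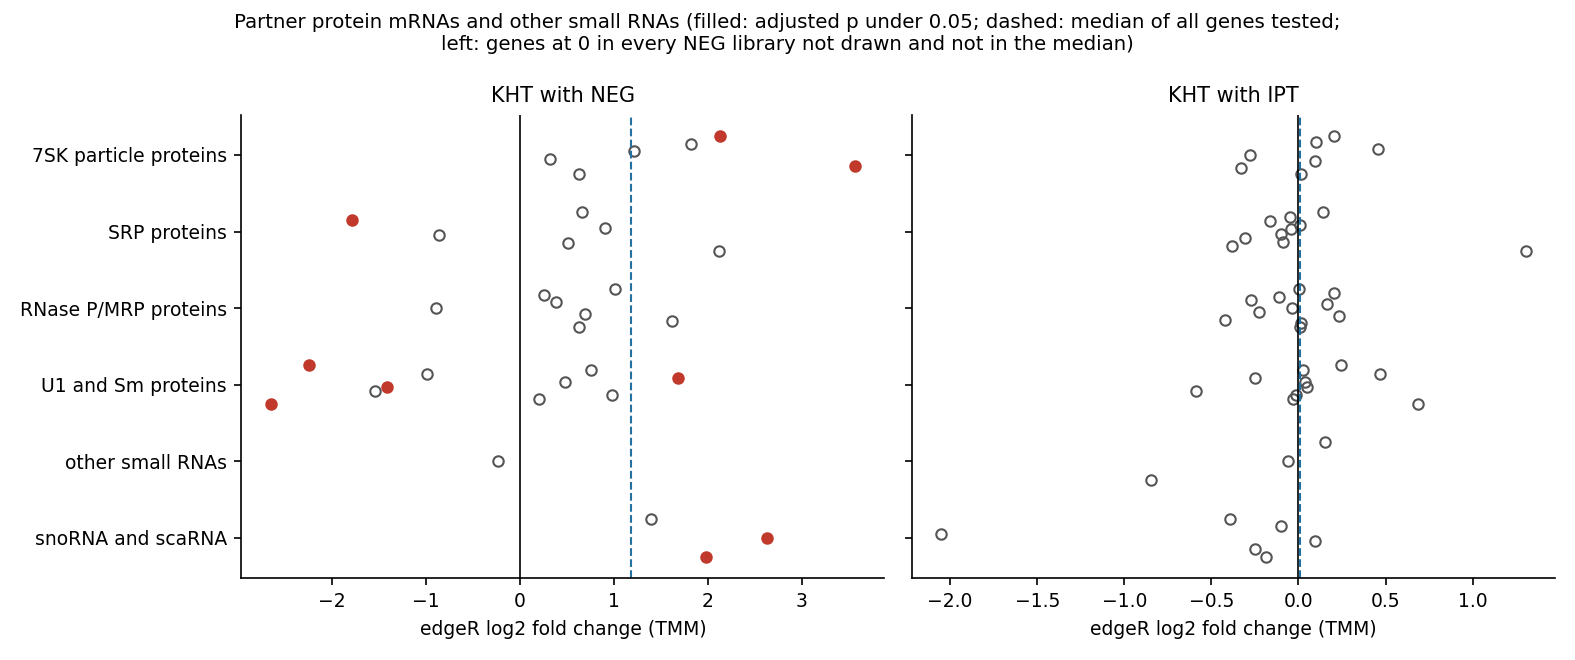
edgeR log2 fold change of each tested gene of the 6 lists, KHT with NEG at left and KHT with IPT at right, with filled points at an adjusted p under 0.05 and a dashed line at the median of all genes tested. Genes at 0 in every NEG library are left out at left, where the median of the other 7728 genes was 1.18, and no point is filled at right, where the median of all 10714 genes tested was 0.01.

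Other small structured RNAs were 116 features in the table, 22 spliceosomal, U3, Y, vault, telomerase and RNase P-like RNAs and 94 small nucleolar or Cajal body RNAs, and 9 of them passed the filter on low counts. Between KHT and NEG 3 of 9 were higher and none lower, a share near the 31.0% higher among all genes tested. All 3 were Cajal body RNAs, which guide the modification of spliceosomal RNAs. Scarna2 averaged 99.3 ± 13.5 CPM in KHT libraries and 15.3 ± 30.6 in NEG, from 3 NEG counts, all in NEG 5, with a pooled ratio of 5.06 (exact counting interval 1.72 to 24.6; edgeR adjusted p = 0.0115). Scarna13 had 0 counts in NEG and was at least 1.64-fold higher in KHT (edgeR adjusted p = 0.0132). Scarna10 averaged 85.6 ± 16.3 CPM in KHT libraries and 24.6 ± 29.3 in NEG (edgeR log2 fold change 1.98, adjusted p = 0.0294), a call lost without NEG 1 (0.0914), NEG 3 (0.0700) or KHT 2 (0.0502). It was also lost with counts outside the dominant features as library size (0.0565). Between NEG and IPT these 3 and Rnu2-10, a U2 RNA, were lower in NEG, 4 of 9 beside 32.5% of all genes tested, with edgeR adjusted p of 0.0131, 0.00882, 0.0181 and 0.0171, and without NEG 1 Scarna10 and Rnu2-10 did not pass (0.0572 and 0.0510), which left 2 calls.

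Between KHT and IPT none of the 9 passed, by edgeR or DESeq2, and 2 had an unadjusted edgeR p under 0.05, as did 175 of all 10714 genes tested. Rnu2-10 stood at 13.8 ± 2.82 CPM in KHT and 25.1 ± 5.70 in IPT, with no overlap between the libraries. Snora74a stood at 2.59 ± 2.53 CPM in KHT and 10.1 ± 1.78 in IPT, from 13 counts in KHT and 79 in IPT, also without overlap. Of tested features 1.28% had every KHT library below every IPT library. Snora74a passed the filter on low counts through IPT, which favours a low ratio, so it is not read against that share. Counted with no filter but 10 counts over both groups, 15 of 17 listed features of the first kind, which are 11 distinct sets of counts, and 27 of 37 small nucleolar and Cajal body RNAs had a lower mean in KHT than in IPT, beside 49.6% of the 17425 features of the table. The summed level of the 22 was 82.1 ± 16.8 CPM in KHT, 50.8 ± 35.3 in NEG and 129 ± 6.19 in IPT. That of the 94 was 340 ± 44.1 CPM in KHT, 90.0 ± 117 in NEG and 399 ± 33.3 in IPT. Copies of Rnu3b1 to Rnu3b4 with identical counts stood at 2.18 or 1.96 CPM each in KHT and 5.86 or 4.97 in IPT. Each had counts in 2 KHT and 2 IPT libraries. The sum of the 22 is a measure of these RNAs only if shared reads were split among copies.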

How the data were processed

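The table deposited by the authors holds expected counts per gene for 13 libraries, already whole numbers. The tools kallisto and DESeq2 and the builds GRCm38 and mm10 are named in the submitters' processing notes; versions, roles, strand setting and filters are not given in the sources used here. Per the labels' protocols, RNA was extracted with Trizol and sequenced after a stranded total RNA kit with ribosomal depletion, while the molecule field says polyA, which was not settled. Counts of 2 outnumbered counts of 1 in 12 libraries.

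Symbols came from a gene name table (27004 of 27071 IDs), and places from RefSeq's GRCm38 annotation. CPM were computed outside features with over 0.5% of pooled NEG counts. The 6 genes and all lists were chosen with earlier results of these data known, so no p is given for the 6. Listed genes were tested with edgeR 4.0.16 in R 4.3.3 (quasi-likelihood, robust, TMM, filterByExpr, 10714 genes), with 12 libraries in 1 fit of 3 groups, two-sided, Benjamini-Hochberg over all genes, threshold 0.05. The 6 genes passed the filter, Rnu1a1 through its IPT counts. A gene at 0 in NEG was set against 3 counts over that group; exact intervals are 95%. The code was tested on simulated data. Named genes were the 6, up to 4 per list and comparison with the smallest p past the threshold, and 3 most correlated features per gene with at least 20 CPM. Alternatives were RLE, total or outside-dominant library sizes, no filter, DESeq2 1.42.0, 2 groups alone, a replicate block, dominance limits of 0.1% and 1% and each library left out.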

Additional observations from a re-analysis of the deposited data

Results flagged for a closer look

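Within groups of 4 libraries, a highest or lowest value was marked when its gap to the nearest other value, over the range, passed Dixon's 95% critical value. Of 69 groups examined 8 were marked, where chance marks about 1 in 20 of groups with normally spread values. A group with counts in only 1 library is always marked, as were Mepce, Cdk9 and Scarna2 in NEG. The number marked is therefore not read against chance.

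Among the 6 RNAs, Rpph1 in NEG 5 was marked at 3954 CPM, where the other controls had 95.8 to 693. Rnu1a1 in KHT 2 was marked at 3.81 CPM, where the other KHT libraries had 2.15 to 2.38, from 2 to 5 counts per library.

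NEG 5 was also marked for Mepce at 20.4 CPM, for Cdk9 at 61.1 CPM and for Scarna2 at 61.1 CPM, with 0 in the other controls. Srp68 in KHT 1 was marked at 66.2 CPM, where the others had 27.6 to 29.5. IPT 2 was marked for Snrpc at 95.5 CPM, against 77.0 to 79.6, and for Scarna10 at 80.8 CPM, against 103 to 104.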

How the results depend on the processing

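Scaling by total counts shifted the all-gene median log2 fold change by 3.94 for KHT with NEG, -0.25 for KHT with IPT and -4.18 for NEG with IPT, and a replicate block shifted it by 4.64, -0.01 and -4.68. Total counts gave 10442 genes called for KHT with NEG (3615 as reported), 0 for KHT with IPT (1) and 10473 for NEG with IPT (3872), all 38 partner messenger RNAs and all 9 other small RNAs in both comparisons with NEG, and median log2 ratios of the 6 RNAs of 5.34 for KHT with NEG and -6.10 for NEG with IPT. They reversed Srp9 (2.33), Snrpd1 (1.89), Snrpe (1.52) and Snrpd2 (2.71) for KHT with NEG, and Srp9 (-2.61), Snrpd1 (-1.93), Snrpe (-1.16) and Snrpd2 (-2.94) for NEG with IPT. Fitting 2 groups alone called 2372, 2 and 2335 genes in the 3 comparisons. KHT with IPT also gave 0 under RLE, 0 with outside-dominant library sizes, 56 with no filter and 7 by DESeq2. Leaving out 1 library gave 1948 to 5875 genes for KHT with NEG (lowest without NEG 1, highest without NEG 5), 0 to 3 for KHT with IPT and 2155 to 5959 for NEG with IPT. It gave 5 to 21 partner messenger RNAs for KHT with NEG and 8 to 22 for NEG with IPT (12 and 13 as reported), and 2 to 5 other small RNAs for NEG with IPT (4). For these counts the cause was not tested. Same-numbered libraries did not deviate together in every pair (correlations of -0.33 to 0.20 for KHT with IPT and of -0.12 to 0.07 for KHT with NEG), so the numbers were not taken as pairing. With them as a block, 5400 genes were called for KHT with NEG, 5461 for NEG with IPT and 1 for KHT with IPT. That fit called 20 partner messenger RNAs in each comparison with NEG. The number 5 occurs in NEG alone, so the block takes NEG 5 out of the group contrasts. Its effect cannot be told apart from the loss of NEG 5, without which 5875 and 5959 genes were called in the comparisons with NEG. Over all alternatives together, 34 of the summary values moved past their limit (1.5 times for a count, 1 SD for a median) and 137 did not, though within that limit the median log2 ratio of the 6 RNAs for KHT with NEG ran from 0.98 to 3.13 (without NEG 5) as 1 library was left out; among single genes 70 values lost their call and 8 reversed. The 31318 counts outside the dominant features in the smallest NEG library limit every comparison with NEG.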
